A study of Mus musculus with 16 samples.

Results

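The transcripts of 48 genes for lysosomal hydrolases, lysosomal membrane proteins, subunits of the proton pump that acidifies the lysosome, and the transcription factors Tfeb and Tfe3 were followed in the mouse myoblast line C2C12. Members were the genes whose symbol in the deposited expression table was on this list, matched by symbol and not by value. The list itself was chosen with earlier results of these data known. All 48 were among the 31053 genes listed, and 43 of them were among the 10767 genes that reached a normalized count of 10 in at least 4 samples and were tested. The measurements came from 16 samples, 4 each of myoblasts and myotubes of the WT and of the Fam134b KO line, where Fam134b encodes a receptor that delivers endoplasmic reticulum to lysosomes. The Fam134b KO line was made by transducing C2C12 cells with a lentivirus that carried Cas9 and a pair of guide RNAs, followed by antibiotic selection. Whether it was 1 clone or a selected pool is not given in the sources used here. The methods describe 1 KO line, so loss of Fam134b cannot be told apart from other differences between the lines. Myoblasts and myotubes of both genotypes were kept in DMEM with fetal bovine serum, in which confluent C2C12 cells fuse without a switch to a differentiation medium. According to the methods, the medium of C2C12 cells was renewed daily. The titles give the genotype and the stage (UNDIFF or DIFF), a separate genotype field reads unknown for every sample, the descriptions call the replicates biological, and no day of culture is given for these samples.

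Lysosomes hold acid hydrolases that take apart proteins, glycans, glycosaminoglycans and lipids delivered by endocytosis and autophagy. Most soluble hydrolases are made in the endoplasmic reticulum, tagged with mannose 6-phosphate in the Golgi and carried to the endosomal system by mannose 6-phosphate receptors, and a proton pump, the V-ATPase, keeps the lumen acidic. TFEB and TFE3, bHLH-zipper factors of the MiT family, enter the nucleus when mTORC1 activity falls and bind an E-box known as the CLEAR element near the start sites of many lysosomal genes. In skeletal muscle, lack of acid α-glucosidase or of LAMP2 causes glycogen storage and vacuolar myopathies.

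Each value below is a normalized count, that is, reads divided by a factor of the sample, and 1484750 to 3287461 reads were counted on genes per sample. Fam134b KO myotubes were the shallowest group (1484750 to 2947336 reads, against at least 2686680 in every other sample), and a detection floor of 3 reads corresponded to 2.49 to 5.99 normalized counts. Fam134b itself ranged from 146 to 287 in the 8 WT samples and from 23.4 to 56.9 in the 8 Fam134b KO samples, so the targeted transcript was low but not at 0 in the KO line (limma, adjusted p = 2.95e-08 in myoblasts and 9.85e-07 in myotubes). The summed level of 8 muscle markers, the satellite cell and myoblast factors Myod1 and Myf5 with Myog, Des, Myh3, Actc1, Mylpf and Ckm, was 1868 to 2679.6 in WT myoblasts against 227 to 298 in KO myoblasts, and 18239.9 to 25953 in WT myotubes against 8472 to 10008 in KO myotubes. Myf5, which marks early myoblasts, did not follow the sum: it was at 59.8 to 81.99 in WT myoblasts against 107 to 118 in KO myoblasts, and at 45.9 to 93.1 in WT myotubes against 37.97 to 113 in KO myotubes. Nearly all of the muscle sum in KO myoblasts was Des (101 to 170) and Myf5. Myog had no read there, against 92.1 to 149 in WT myoblasts. Myod1 was at 5.81 to 15.7 in KO against 236 to 375 in WT myoblasts, and Mylpf at 3.50 to 7.51 against 872 to 1172. Myh3, Actc1 and Ckm reached at most 1.67 in KO myoblasts. The sum of 8 macrophage markers stayed between 14.9 and 27.9. The sum of 5 osteoblast markers, nearly all of it Runx2, ranged from 26.3 to 150.1, and that of 5 adipocyte markers from 0 to 26.2.

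No difference in Tfeb or Tfe3 passed the test across all genes, although each did so in WT under 1 alternative. Tfeb was measured at 24.9, 15.4, 22.02 and 16.9 normalized counts in the 4 WT myoblasts and 44.03, 35.1, 28.8 and 25.8 in WT myotubes. The Fam134b KO values were 33.2, 19.9, 26.9 and 24.2 in Fam134b KO myoblasts and 35.8, 77.3, 15.3 and 21.98 in Fam134b KO myotubes. All 4 WT myotube samples lay above all 4 WT myoblast samples, whereas the Fam134b KO myotubes spread from below the lowest Fam134b KO myoblast sample to above the highest. In WT the log2 fold change of myotubes against myoblasts was 0.72 (SE 0.37), which did not pass the test across all genes (limma, Benjamini-Hochberg adjusted p = 0.168), and a two-sided exact permutation test of this gene alone gave p = 0.0286, the smallest that 4 against 4 samples allow. With only the 8 WT samples in the fit the adjusted p was 0.0454 (limma). In Fam134b KO cells the log2 difference was 0.28 (exact permutation p = 0.686), and without Fam134b KO myotube replicate 2 it was −0.15.

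Tfe3 was measured at 262, 227, 268 and 260.2 normalized counts in the 4 WT myoblasts and 170.1, 245, 195 and 200.1 in WT myotubes. Without Fam134b the values were 300.1, 231, 292 and 289 in Fam134b KO myoblasts and 264, 337, 195 and 242 in Fam134b KO myotubes. Its WT groups overlapped, with WT myotube replicate 2 inside the range of the myoblasts and the other 3 myotube samples below it. Its log2 fold change was −0.34 in WT (SE 0.17, limma adjusted p = 0.165, exact permutation p = 0.0571) and −0.12 in Fam134b KO cells (exact permutation p = 0.543). With sample weights the WT value of Tfe3 passed the threshold (−0.37, limma adjusted p = 0.0173). Between the genotypes the exact permutation p-values were 0.171 for Tfeb and 0.343 for Tfe3 in myoblasts and 0.943 and 0.171 in myotubes.

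The element that these factors bind was looked for in the promoters of the members, 250 bases before to 50 bases after each start site, in RefSeq's promoter table of the GRCm38.p6 build. The table holds 42 of the 48 members, and Asah1, Atp6v1h, Ctsb, Ctsh, Galns and Npc1 have no entry in it. The core of the CLEAR element, TCACGTGA, which reads the same on both strands, occurred in 7 of the 42 members (16.7%), against 304 of all 27025 genes in the table (1.12%), each counted once where any of its promoters held it. The E-box CACGTG, which lies inside the longer motif, occurred in 16 of the 42 members (38.1%) against 8.09% of all genes. Since the element is already known near many lysosomal genes, these shares are no independent test of a link. The 9 occurrences of the core are shown with their flanks, in the direction of the gene and with the core in capitals, since this element is the best known link between Tfeb, Tfe3 and the other members.
Ctsa, chr2:164833749-164833778, plus strand: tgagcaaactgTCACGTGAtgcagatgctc
Ctsa, chr2:164833766-164833795, plus strand: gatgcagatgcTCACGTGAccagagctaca
Ctsd, chr7:142387908-142387937, minus strand: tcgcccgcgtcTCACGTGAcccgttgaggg
Gla, chrX:134601182-134601211, minus strand: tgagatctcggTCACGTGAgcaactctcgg
Gla, chrX:134601215-134601244, minus strand: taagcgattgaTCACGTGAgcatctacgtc
Mcoln1, chr8:3500462-3500491, plus strand: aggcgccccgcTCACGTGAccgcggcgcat
Cln3, chr7:126583340-126583369, minus strand: cacgggtactgTCACGTGAcccccaacctg
Atp6v1a, chr16:44139373-44139402, minus strand: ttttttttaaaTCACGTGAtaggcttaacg
Atp6v0d1, chr8:105566050-105566079, minus strand: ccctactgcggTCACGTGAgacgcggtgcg

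The 7 genes with the core did not share 1 pattern of expression. In WT, Ctsa and Ctsd were higher in myotubes, Atp6v1a was lower, and Mcoln1, Gla and Atp6v0d1 did not pass the test, while Cln3 was too low to be tested. In Fam134b KO cells Ctsa, Ctsd and Atp6v1a were all higher in myotubes. Counted over the tested members, 2 of 6 with the core and 19 of 37 without it or without a promoter entry were called higher on differentiation of WT cells, and 3 of 6 and 21 of 37 on differentiation of Fam134b KO cells. With the E-box the counts were 9 of 15 and 12 of 28 in WT, and 9 of 15 and 15 of 28 in Fam134b KO cells. Of all genes tested, 13.8% were called higher on differentiation of WT cells and 17.3% of Fam134b KO cells. A match describes the letters of the sequence and not the binding of a factor.

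On differentiation, 21 of the 43 members tested rose (48.8%) and 1 fell in WT myotubes against WT myoblasts, and the median log2 fold change was 0.93 against −0.01 over all genes tested. Calls were made at a limma adjusted p under 0.05, and 13.8% of all genes were called higher and 9.16% lower in this comparison. In Fam134b KO cells 24 members rose (55.8%) and 0 fell, with a median of 0.98 against −0.02 over all genes, where 17.3% of all genes were called higher and 16.1% lower. The 4 myotube samples lay wholly above the 4 myoblast samples for 19 members in WT and wholly below for 1 (28% of all genes did not overlap either way), and wholly above for 18 members in Fam134b KO cells (27.4% of all genes). The WT count was 14 without WT myoblast replicate 4, the sample with the lowest lysosomal levels of its group, and between 15 and 25 without any other single sample. These are bulk samples, in which a change in the share of cells of a type and a change in RNA per cell cannot be told apart, and the summed muscle markers were higher in myotubes of both genotypes, although Myf5 among them was not.

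The WT and the KO comparison share no sample. Of the members called higher, 17 were called in both genotypes, 4 in WT only (Ctso, Lgmn, Glb1 and Galns) and 6 in Fam134b KO cells only (Ctsh, Man2b1, Neu1, Sgsh, Lipa and Ppt1), 15 members were called in neither, and Atp6v1a was called in opposite directions. The difference itself passed the test for 2 members, Atp6v1a and Cd63, and for none of the 10 called in 1 genotype only. The plot of fold changes on differentiation shows the members by role. The counts by role below stand beside 13.8% of all genes called higher in WT and 17.3% in Fam134b KO cells.

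**Figure D1:**
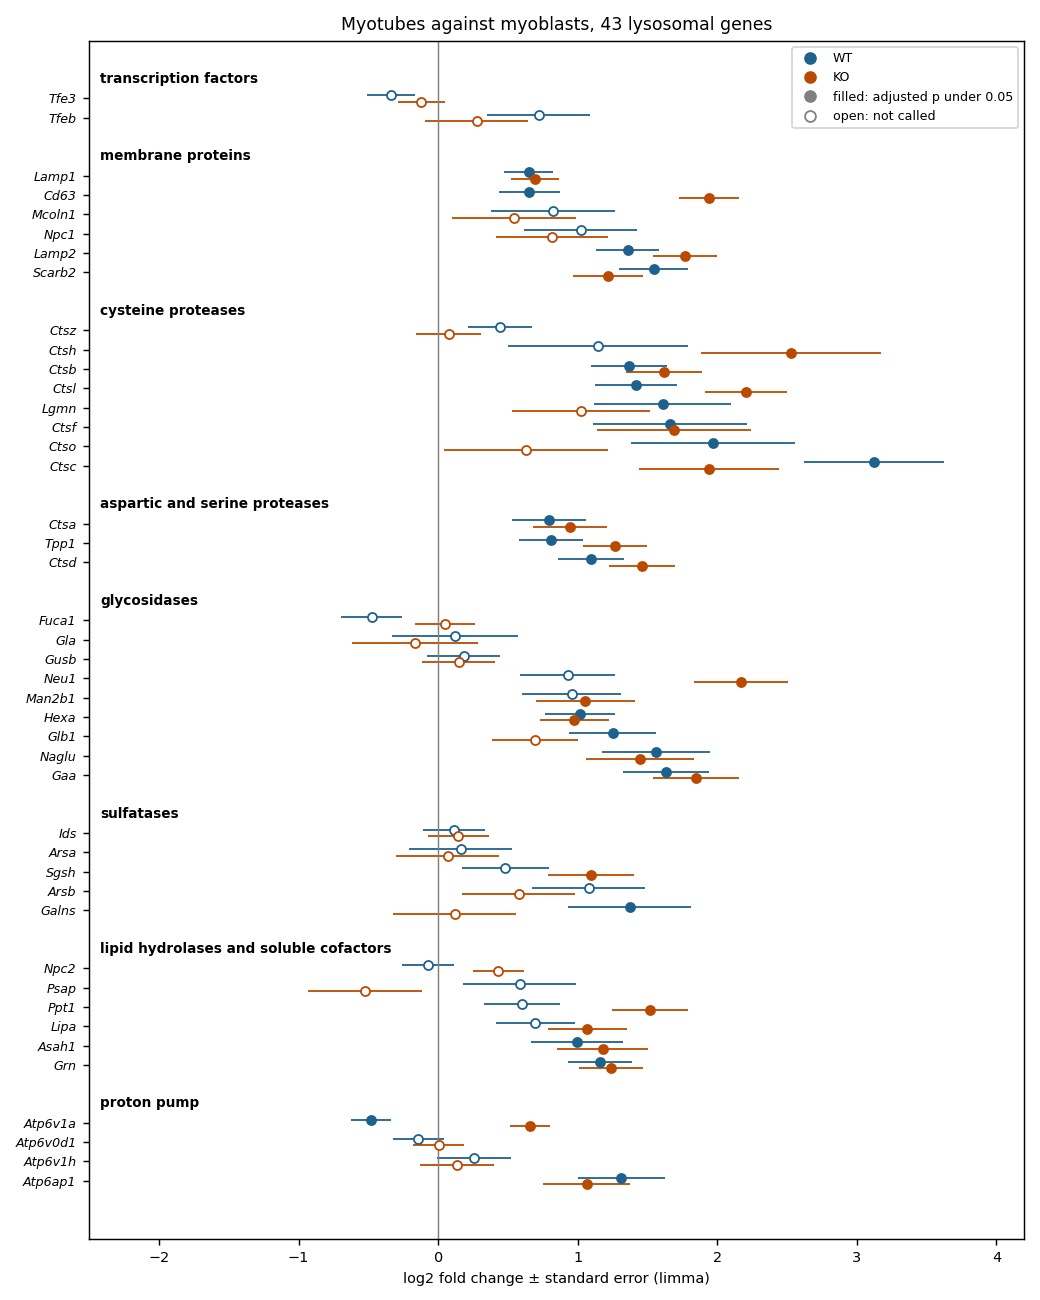
Log2 fold change of myotubes against myoblasts (horizontal axis) for the 43 lysosomal genes tested, grouped by role, in WT (blue) and Fam134b KO (orange) cells, with bars of 1 standard error from limma and filled points at an adjusted p under 0.05. Called or not, 38 of the 43 points in WT and 40 in Fam134b KO cells lie to the right of 0, and Atp6v1a, at the bottom, lies on opposite sides of 0 in WT (−0.48) and Fam134b KO cells (0.66).

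Among the membrane proteins, 4 of 6 tested rose in each genotype and none fell. Lamp2, a major glycoprotein of the lysosomal membrane, was at 305, 309, 217 and 163 normalized counts in the 4 WT myoblasts and 808, 488, 572 and 647 in WT myotubes. In the KO line it was at 287, 237, 422 and 289 in Fam134b KO myoblasts and 1356, 1090.0, 764 and 999 in Fam134b KO myotubes. Myotube and myoblast samples did not overlap in either genotype, with log2 fold changes of 1.36 in WT (SE 0.23, adjusted p = 0.000196) and 1.77 in Fam134b KO cells (SE 0.23, adjusted p = 4.13e-06, limma). Its relative Lamp1 rose less, by a log2 fold change of 0.65 and 0.69, and Scarb2, the receptor that carries β-glucocerebrosidase to lysosomes, by 1.54 and 1.22. The fourth, the tetraspanin Cd63 of late endosomes, is given with the interaction below. For Npc1, which exports cholesterol from the lysosome, and Mcoln1, the lysosomal calcium channel, the log2 differences in WT were 1.02 (adjusted p = 0.0723) and 0.82 (adjusted p = 0.193, both limma), neither past the threshold.

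Of the 8 cysteine proteases tested, 6 rose on differentiation of WT cells and 5 of Fam134b KO cells. Ctsc, dipeptidyl peptidase 1, which activates several serine proteases by trimming their ends, lies at chr7:88278085-88310888 (plus strand, GRCm38) and was at 11.1, 10.6, 8.01 and 5.35 normalized counts in the 4 WT myoblasts and 193, 35.1, 75.3 and 85.2 in WT myotubes. The KO samples held 0, 0, 0.868 and 0 in Fam134b KO myoblasts and 4.84, 7.30, 1.80 and 1.998 in Fam134b KO myotubes. In WT the groups did not overlap, and the log2 fold change was 3.12 (SE 0.50, limma adjusted p = 0.000130). In Fam134b KO myoblasts a single read was counted in 1 of 4 samples, so the rise to 13 reads over the 4 Fam134b KO myotube samples is given as a ratio of 18.3 with a 95% counting interval of 2.76 to 780 (exact, counting error only). The fitted log2 value of this rise was 1.94 (adjusted p = 0.00514), it depends on the pseudocount, and it lost its call with a pseudocount of 5 (0.74), with quantile normalization (1.11) and with voom on the recovered reads (2.85).

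Ctsl, an endopeptidase, was at 446, 504, 317 and 218 normalized counts in the 4 WT myoblasts and 1754, 529.9, 859.7 and 999.6 in WT myotubes. Fam134b KO cells had 157, 203, 201 and 143 in Fam134b KO myoblasts and 1184, 715, 668 and 741 in Fam134b KO myotubes. The myotube samples of both genotypes lay above all myoblast samples of the same genotype, with a log2 fold change of 1.42 in WT (SE 0.29, adjusted p = 0.00143) and 2.20 in Fam134b KO cells (SE 0.29, adjusted p = 6.41e-06, limma). Exons of Ctsl overlap an antisense gene and a processed pseudogene in GENCODE M21, and the strand setting of the counting is not given in the sources used here. Ctsb, the other abundant endopeptidase of this family, rose by a log2 fold change of 1.36 and 1.62, and Lgmn, the asparaginyl endopeptidase that processes several cathepsins, by 1.61 in WT (adjusted p = 0.0226) with 1.02 in Fam134b KO cells (adjusted p = 0.114, limma). The call of Lgmn was lost without WT myoblast replicate 3 (1.34) or 4 (1.52) or WT myotube replicate 1 (1.25) or 4 (1.56).

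Ctso and Ctsf, less studied papain-like cathepsins, had few reads. Ctso was at 6.46, 10.6, 0 and 2.67 normalized counts in the 4 WT myoblasts and 30.2, 7.20, 13.01 and 19.8 in WT myotubes. For the KO line the values were 12.2, 10.8, 13.01 and 7.51 in Fam134b KO myoblasts and 26.1, 24.8, 10.8 and 11.99 in Fam134b KO myotubes, and its WT groups overlapped, WT myotube replicate 2 lying below WT myoblast replicate 2. Its WT log2 fold change of 1.97 (SE 0.59, limma adjusted p = 0.0195) missed the threshold without WT myoblast replicate 3 (1.28, the sample with no Ctso read), without WT myoblast replicate 4 (1.90) and without WT myotube replicate 1 (1.66) or 4 (1.86). Ctsf was at 5.54, 2.89, 1.001 and 0.891 normalized counts in the 4 WT myoblasts and 6.04, 12.6, 4.65 and 16.8 in WT myotubes. The Fam134b KO values were 6.999, 1.66, 1.74 and 5.84 in Fam134b KO myoblasts and 26.1, 8.76, 9.90 and 13.99 in Fam134b KO myotubes. Its Fam134b KO groups did not overlap, and its log2 fold changes were 1.66 in WT (adjusted p = 0.0345) and 1.69 in Fam134b KO cells (adjusted p = 0.0226, limma), a call that was lost in 6 and 5 of 26 alternatives. Ctsh, an aminopeptidase, is given with the genotype below, and Ctsz, a carboxypeptidase, did not pass the test at 0.44 and 0.07.

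All 3 aspartic and serine proteases rose in both genotypes. For Ctsd, the main lysosomal aspartic protease, the log2 fold change was 1.09 in WT and 1.46 in Fam134b KO cells (adjusted p = 0.00209 and 6.70e-05, limma), and no myotube sample of either genotype (665 to 1473 normalized counts) reached down to the level of any myoblast sample (265 to 593). A readthrough gene model on the same strand shares 808 exonic bases with Ctsd. Tpp1, tripeptidyl peptidase 1, rose by 0.81 and 1.27, and Ctsa, the carboxypeptidase that protects β-galactosidase and neuraminidase 1, by 0.80 and 0.95. In WT the call of Ctsa (limma adjusted p = 0.0352) was lost in 7 of 27 alternatives, with total scaling (0.80) and without WT myoblast replicate 2, 3 or 4 or WT myotube replicate 1, 3 or 4 (0.65 to 0.83), and that of Tpp1 without WT myoblast replicate 4 (0.62) or WT myotube replicate 1 (0.70).

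Of the 9 glycosidases tested, 4 rose in WT and 5 in Fam134b KO cells. Gaa, the acid α-glucosidase that degrades glycogen, was at 103, 103, 50.04 and 32.97 normalized counts in the 4 WT myoblasts and 281, 193, 188 and 168 in WT myotubes. Without Fam134b the values were 79.6, 63.1, 98.03 and 73.4 in Fam134b KO myoblasts and 418, 304, 182 and 274 in Fam134b KO myotubes. Its myotube samples lay above all myoblast samples in each genotype, with log2 fold changes of 1.63 (SE 0.31, adjusted p = 0.000633) and 1.85 (SE 0.31, adjusted p = 9.27e-05, limma). Naglu, which removes N-acetylglucosamine from heparan sulfate, rose by 1.56 and 1.45 and Hexa, the α subunit of β-hexosaminidase, by 1.01 and 0.98. Neu1, the lysosomal sialidase, was at 27.7, 19.3, 17.01 and 13.4 normalized counts in the 4 WT myoblasts and 56.1, 23.4, 31.6 and 42.6 in WT myotubes. In the KO line it was at 14.9, 16.6, 14.7 and 9.18 in Fam134b KO myoblasts and 85.2, 102, 39.6 and 49.96 in Fam134b KO myotubes. In Fam134b KO cells its groups did not overlap and the log2 fold change was 2.17 (SE 0.34, adjusted p = 4.66e-05), whereas in WT the highest myoblast sample lay above the lowest myotube sample and the value was 0.93 (adjusted p = 0.0528, limma). Glb1, β-galactosidase, rose by 1.25 in WT, with 0.69 in Fam134b KO cells (adjusted p = 0.0881, limma), and Man2b1, the acid α-mannosidase, by 1.06 in Fam134b KO cells, with 0.96 in WT (adjusted p = 0.0560, limma). Gla, Gusb and Fuca1, which remove α-galactose, glucuronic acid and fucose, passed in neither genotype, with log2 differences between −0.48 and 0.18.

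Of the 5 sulfatases, which remove sulfate from glycosaminoglycans and sulfatide, 1 rose in each genotype. This is 20%, near the 13.8% of all genes called higher in WT and the 17.3% in Fam134b KO cells. Galns rose by a log2 fold change of 1.37 in WT (adjusted p = 0.0296), a call that 7 of 26 alternatives ended, and was at 0.12 in Fam134b KO cells. Sgsh rose by 1.09 in Fam134b KO cells (adjusted p = 0.00958) and was at 0.48 in WT (limma). Ids, Arsa and Arsb did not pass in either.

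Among the lipid hydrolases and soluble cofactors 2 of 6 rose in WT and 4 of 6 in Fam134b KO cells. Grn, the precursor of the granulins, rose by 1.16 and 1.24, and Asah1, acid ceramidase, by 1.00 and 1.18. The call of Asah1 was lost in WT without WT myoblast replicate 2, 3 or 4 or WT myotube replicate 1, 3 or 4 (0.82 to 1.03), and in Fam134b KO cells without the 2 shallowest samples (0.87, limma adjusted p = 0.0592). Lipa, lysosomal acid lipase, and Ppt1, which removes palmitate from proteins, rose in Fam134b KO cells by 1.07 and 1.52, with 0.69 and 0.60 in WT (adjusted p = 0.0815 and 0.115, limma). The rise of Lipa lost its call without the 2 shallowest samples (0.71). Npc2, the soluble cholesterol carrier, and Psap, the saposin precursor, passed in neither genotype, and the log2 difference of Psap was 0.58 in WT and −0.52 in Fam134b KO cells.

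Among the V-ATPase members the accessory subunit Atp6ap1 rose in both genotypes, by 1.31 and 1.07. Atp6v0d1 of the membrane sector and Atp6v1h of the cytosolic sector had values between −0.14 and 0.26 on the log2 scale and did not pass. The catalytic subunit Atp6v1a followed another course in each genotype and is described with the interaction.

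In Fam134b KO against WT myoblasts the median of the members stood close to that of all genes. Of 43 tested, 1 was higher and 4 were lower in Fam134b KO myoblasts (2.33% and 9.30%), against 7.26% of all genes called higher and 8.5% lower. The median log2 difference was 0.08 against −0.01 over all genes. Groups did not overlap for 6 members, 3 in each direction, a smaller share than the 26.8% of all genes. The count of 5 was 2 without WT myoblast replicate 1 or without Fam134b KO myoblast replicate 4 and 3 without Fam134b KO myoblast replicate 1, and it was 11 with sample weights. In myotubes 7 members were higher and 2 lower in Fam134b KO cells (9.74% and 13.7% of all genes), with a median of 0.12 against −0.07 over all genes and 7 members without overlap, 4 above and 3 below (19.4% of all genes). This count of 9 was 4 without WT myotube replicate 3, 5 without WT myotube replicate 4 or without Fam134b KO myotube replicate 2, and 4 without the 2 shallowest Fam134b KO myotube samples. The largest differences were in 2 cysteine proteases, Ctsc and Ctsh, which were lower in Fam134b KO cells at both stages and in all 26 alternatives that tested them, and a minimum of 50 left both out of the test.

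**Figure D2:**
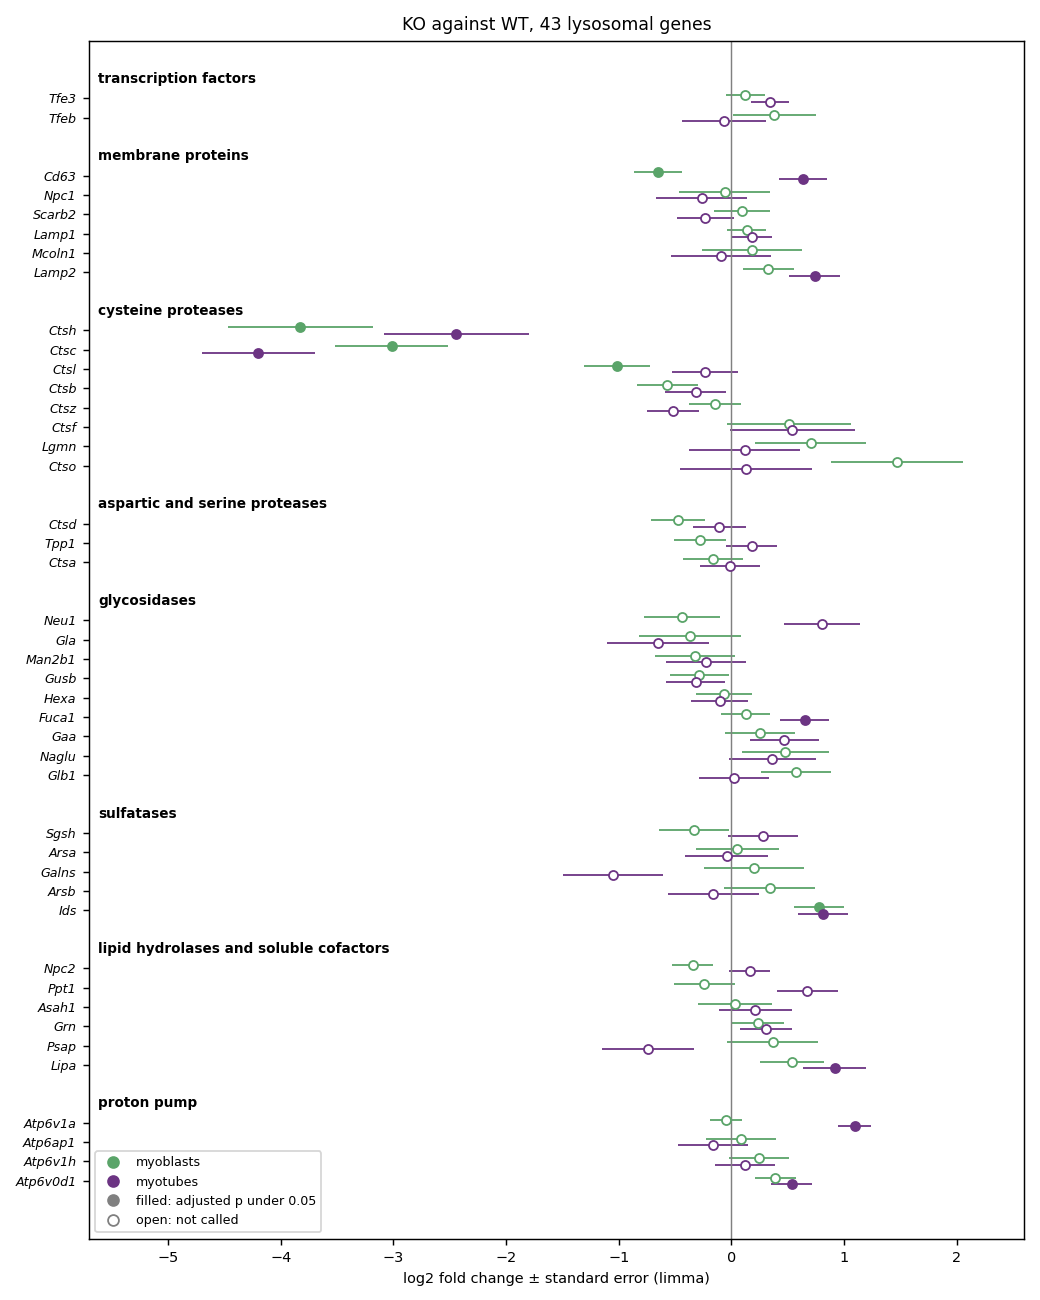
Log2 fold change of Fam134b KO against WT (horizontal axis) for the 43 lysosomal genes tested, grouped by role, in myoblasts (green) and myotubes (purple), with bars of 1 standard error from limma and filled points at an adjusted p under 0.05. Most points lie near 0, Ctsh and Ctsc lie far to the left at both stages, and Cd63 is filled on opposite sides of 0.

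In myoblasts the values of Ctsc given above do not overlap, with 37 reads over the 4 WT samples and 1 over the 4 Fam134b KO samples. WT was 41.0 times higher per unit of depth, with a 95% counting interval of 6.91 to 1662 (exact, counting error only), and the fitted log2 fold change was −3.02 (SE 0.50, limma adjusted p = 0.000145). In myotubes 430 reads in WT stood against 13 in Fam134b KO cells, a ratio of 25.3 (counting interval 14.6 to 47.9), with a log2 fold change of −4.20 (SE 0.50, adjusted p = 5.09e-06). The lowest WT myotube sample (35.1) was above the highest Fam134b KO myotube sample (7.30).

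Ctsh lies at chr9:90054152-90076089 (plus strand, GRCm38) and was at 22.1, 21.2, 17.01 and 14.3 normalized counts in the 4 WT myoblasts and 60.4, 35.1, 36.2 and 39.6 in WT myotubes. The KO samples held 0.875, 0, 0.868 and 0 in Fam134b KO myoblasts and 12.6, 0, 17.99 and 13.99 in Fam134b KO myotubes. At each stage the KO samples were all lower than the WT samples, and 3 of the 4 Fam134b KO myotube samples stood well above the Fam134b KO myoblasts. With 79 reads in WT myoblasts and 2 in Fam134b KO myoblasts the ratio was 43.8 (95% counting interval 11.7 to 368, exact), and the fitted log2 fold change was −3.83 (SE 0.64, limma adjusted p = 0.000171). In myotubes the ratio of pooled reads was 3.59 (interval 2.54 to 5.19, counting error only, without the spread between samples). The fitted log2 fold change was −2.44 (SE 0.64, limma adjusted p = 0.00901), a fold of 0.184 in KO against WT. It averages the logs of single samples, so Fam134b KO myotube replicate 2, with no Ctsh read, weighs more in it than in the ratio. That replicate and the still shallower replicate 4 (13.99) were the 2 shallowest samples. On differentiation Ctsh was called higher in Fam134b KO cells, from 2 reads to 40 (ratio 28.2, counting interval 7.32 to 241), and was at 1.14 in WT (adjusted p = 0.213, limma), although the 4 WT myotube samples lay above the 4 WT myoblast samples. Ctsc and Ctsh are also abundant in cells of the immune system. Of 8 macrophage markers, Ptprc, Adgre1 and Itgam had no read in any sample, Csf1r was at 0 to 21.9, Cd14 at 0 to 19.6, and Fcer1g, Tyrobp and Aif1 reached at most 7.99, 3.87 and 1.75 normalized counts. Their sum was 18.01 to 24.9 in WT and 21.7 to 27.1 in KO myoblasts, and 14.9 to 27.9 in WT and 15.99 to 26.1 in KO myotubes, so that it overlapped between the genotypes. Within the sum, Csf1r and Cd14 moved apart in myotubes. Csf1r averaged 4.09 in WT and 11.5 in KO myotubes, with overlap, and Cd14 11.4 and 3.77, without overlap. In myoblasts Csf1r averaged 2.34 in WT and 6.80 in KO cells, and Cd14 16.7 and 14.03, both with overlap. The part of immune cells in the differences was not tested.

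**Figure D3:**
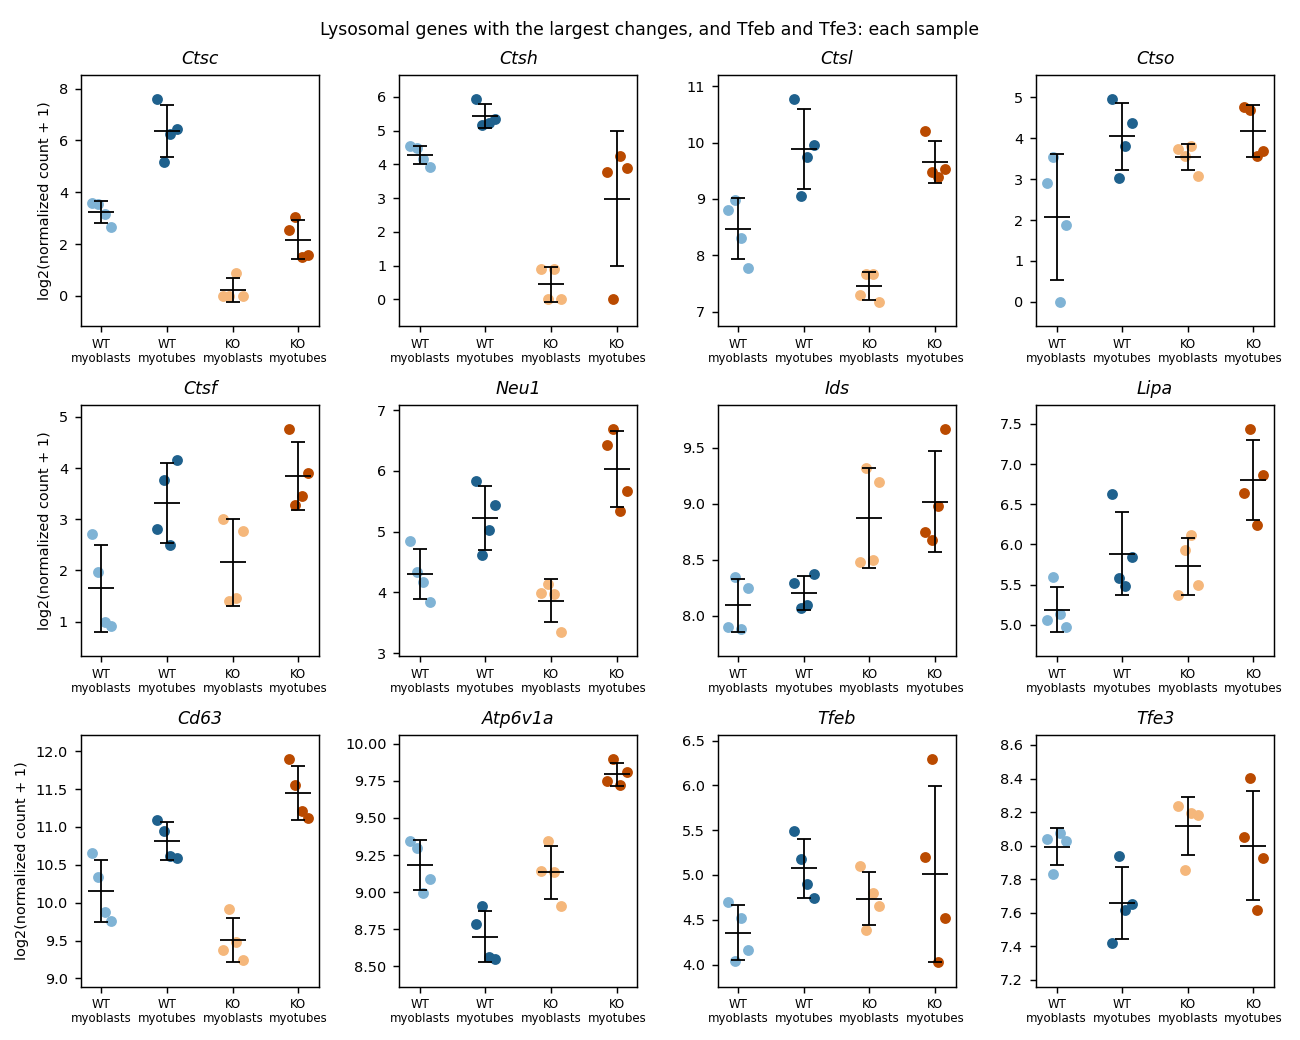
Each sample's level, as log2 of the normalized count plus 1 (vertical axis, scaled per gene), of 12 lysosomal genes in the WT (blue) and Fam134b KO (orange) samples, myoblasts in the lighter and myotubes in the darker shade, with the mean and SD of the 4 samples as black bars. Ctsc and Ctsh lie at or near 0 in Fam134b KO myoblasts, and Atp6v1a is lowest in WT myotubes and highest in Fam134b KO myotubes.

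Ctsl was lower in Fam134b KO than in WT myoblasts (log2 fold change −1.02, SE 0.29, limma adjusted p = 0.0195), and none of the 4 samples overlapped. This call missed the threshold without WT myoblast replicate 1 (−0.91) or 2 (−0.85) and without Fam134b KO myoblast replicate 1 (−0.97) or 4 (−0.93). In myotubes the difference was −0.23 (adjusted p = 0.615), and the interaction for Ctsl was 0.79 (adjusted p = 0.331), so a change of the genotype difference between the stages was not shown. The summed muscle markers were also lower in Fam134b KO than in WT myoblasts, by values given above that do not overlap, while Myf5 alone was higher there in Fam134b KO cells, also without overlap. The part of these markers in the differences was not tested.

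Ids, the iduronate 2-sulfatase of heparan and dermatan sulfate breakdown, was the 1 member higher in Fam134b KO cells at both stages. It was at 238, 325, 235 and 303 normalized counts in the 4 WT myoblasts and 313, 267, 272 and 329.9 in WT myotubes. Fam134b KO cells had 356, 639, 361 and 584 in Fam134b KO myoblasts and 429.9, 409, 503 and 811 in Fam134b KO myotubes. At each stage the KO samples were all higher than the WT samples, by a log2 fold change of 0.78 in myoblasts (SE 0.22, adjusted p = 0.0178) and 0.81 in myotubes (SE 0.22, adjusted p = 0.0109, limma). The myoblast call missed the threshold without WT myoblast replicate 1 (0.71) or 3 (0.71) and without Fam134b KO myoblast replicate 2 (0.63) or 4 (0.67), and the myotube call without the 2 shallowest samples (0.66, adjusted p = 0.05005).

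Lipa was at 32.3, 47.3, 34.02 and 30.3 normalized counts in the 4 WT myoblasts and 97.6, 46.8, 43.7 and 56.5 in WT myotubes. For the KO line the values were 40.2, 59.8, 68.5 and 44.2 in Fam134b KO myoblasts and 98.8, 172, 74.7 and 116 in Fam134b KO myotubes. In myotubes 1 WT sample, replicate 1, lay among the Fam134b KO samples, and the log2 fold change was 0.91 (SE 0.28, limma adjusted p = 0.0229). Without WT myotube replicate 2, 3 or 4 or Fam134b KO myotube replicate 2 the value was 0.81, 0.78, 0.90 or 0.70 and the call was lost. It was also lost with only the samples compared (0.91), with sample weights (0.78) and without the 2 shallowest samples (0.56, limma adjusted p = 0.216). Lamp2, Fuca1 and Atp6v0d1 were also called higher in Fam134b KO myotubes, by 0.74, 0.65 and 0.53, and each of these calls was lost in 5 to 7 of 27 alternatives, among them the one without the 2 shallowest Fam134b KO myotube samples.

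The change on differentiation itself differed between the genotypes for 2 members, both higher in Fam134b KO cells, where 1.97% of all genes were called higher and 1.48% lower by the interaction. Atp6v1a, the subunit of the V-ATPase that binds and hydrolyses ATP, lies at chr16:44085402-44139705 (minus strand, GRCm38) and carries the core motif shown above. It was at 648, 629.8, 508 and 545 normalized counts in the 4 WT myoblasts and 439, 479, 377 and 374 in WT myotubes. The Fam134b KO values were 565, 650.0, 560.4 and 479.7 in Fam134b KO myoblasts and 861, 951, 844 and 895 in Fam134b KO myotubes. The 4 WT myotube samples were the lowest of all 16, the 4 Fam134b KO myotube samples were the highest, and the myoblasts of both genotypes lay between them and overlapped each other. It fell by 0.48 on the log2 scale in WT (SE 0.14, adjusted p = 0.0202), rose by 0.66 in Fam134b KO cells (SE 0.14, adjusted p = 0.00136), and the interaction was 1.14 (SE 0.20, limma adjusted p = 0.00174). In myotubes the genotypes differed by 1.09 (SE 0.14, adjusted p = 1.56e-05) and in myoblasts by −0.05 (adjusted p = 0.878). The interaction stayed between 1.07 and 1.21 and was called in all 26 alternatives, while the fall in WT lost its call without WT myoblast replicate 1 (−0.43) or 2 (−0.44) or WT myotube replicate 3 (−0.43) or 4 (−0.43).

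Cd63, a tetraspanin of late endosomes, lysosomes and exosomes, was at 1607, 1291, 938 and 868 normalized counts in the 4 WT myoblasts and 2185, 1971, 1564 and 1541 in WT myotubes. Without Fam134b the values were 664, 962, 715 and 605 in Fam134b KO myoblasts and 3805, 3016, 2368 and 2222 in Fam134b KO myotubes. WT myotube and myoblast samples overlapped, with WT myoblast replicate 1 above the 2 lowest WT myotube samples, whereas all Fam134b KO myotube samples were above every other sample and the Fam134b KO myoblasts held the 3 lowest values. Its log2 fold change on differentiation was 0.65 in WT (SE 0.22, adjusted p = 0.0335) and 1.94 in Fam134b KO cells (SE 0.22, adjusted p = 6.01e-07), and the interaction was 1.29 (SE 0.31, limma adjusted p = 0.0198). Fam134b KO cells were lower in myoblasts (−0.65, adjusted p = 0.0436) and higher in myotubes (0.63, adjusted p = 0.0375). Of 27 alternatives, 10 ended the call in myoblasts (−0.49 to −0.65), 7 that in myotubes (0.49 to 0.63) and 5 that on differentiation of WT cells (0.52 to 0.65). The interaction kept its direction throughout and missed the threshold without WT myoblast replicate 1 (1.12) or 2 (1.23), WT myotube replicate 3 (1.22) or 4 (1.21) or Fam134b KO myoblast replicate 1 (1.25) or 4 (1.20), with adjusted p-values from 0.0511 to 0.0560 (limma).

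Members called in none of the 4 comparisons between groups were Tfeb, Tfe3, Npc1, Mcoln1, Ctsz, Gla, Gusb, Arsa, Arsb, Npc2, Psap and Atp6v1h, 12 of the 43. Another 5 symbols on the list had too few reads for a test. Ctsk, the collagen-degrading cathepsin of osteoclasts, had at most 3 reads in a sample and Ctss, the cathepsin of antigen-presenting cells, at most 2, so both stayed at or under the detection floor. Cln3, whose loss causes a neuronal ceroid lipofuscinosis, had 1 to 9 reads, Manba, β-mannosidase, 0 to 9, and Idua, α-iduronidase, 0 to 16.

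The mean level of the members differed between samples of the same group. Taken over the 43 members, the mean deviation from the group mean ranged on the log2 scale from −0.39 to 0.39 in WT and −0.24 to 0.26 in KO myoblasts, and from −0.26 to 0.30 in WT and −0.34 to 0.43 in Fam134b KO myotubes. In WT myoblasts 39 of the 43 members were above the group mean in replicate 1 and 5 in replicate 4. In every group the mean deviation was above 0 in replicate 1 and below 0 in replicate 4. Over all genes tested the scaling of each sample holds this mean near 0 (−0.06 to 0.07), so that it is no measure of how far lists of other genes spread.

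**Figure D4:**
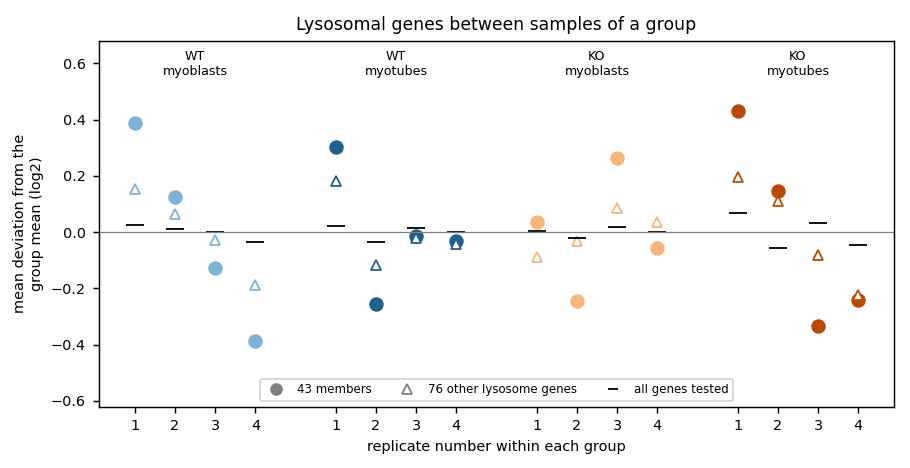
Mean deviation from the group mean (log2, vertical axis) in each of the 16 samples, for the 43 lysosomal members (filled circles), 76 other lysosomal genes (open triangles) and all genes tested (black dashes), with the replicate number on the horizontal axis. The members spread from −0.39 to 0.43, and the dashes lie near 0, where the scaling of each sample holds them.

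Other genes of the lysosome, and genes that act around it, were listed by function from general knowledge, with earlier results of these data known. Their counts on differentiation went in the same direction, which is no independent check. Of 100 listed, 99 were in the table and 76 were tested. Among the 76 are 14 genes for MiT factors and their regulators and 3 for inhibitors of cathepsins. These are left out of the counts by group below and are given under other observations. On differentiation of WT cells 26 rose and 4 fell (34.2% and 5.26%, against 13.8% and 9.16% of all genes). On differentiation of Fam134b KO cells 37 rose and 1 fell (48.7% and 1.32%, against 17.3% and 16.1% of all genes). The median log2 fold changes were 0.46 and 0.56. By group, with WT first, 10 and 11 of 20 further hydrolases rose (50% and 55%) and 7 and 12 of 17 further membrane proteins (41.2% and 70.6%). Of 14 further V-ATPase subunits 3 and 7 rose (21.4% and 50%), and of 8 genes of hydrolase sorting 3 and 2 (37.5% and 25%). The V-ATPase share in WT and the sorting share in Fam134b KO cells lay nearest those of all genes. In WT the largest changes were in Igf2r, the cation-independent mannose 6-phosphate receptor (log2 fold change 2.25, SE 0.54, adjusted p = 0.00512), and Epdr1 (log2 fold change 1.79, SE 0.32, adjusted p = 0.000429), and in Fam134b KO cells in Ctns, the lysosomal cystine exporter (log2 fold change 2.99, SE 0.35, adjusted p = 1.26e-06), and the V-ATPase accessory gene Atp6ap2 (log2 fold change 1.94, SE 0.27, adjusted p = 1.05e-05, limma).

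Between the genotypes, 3 of these 76 genes were higher and 6 lower in Fam134b KO myoblasts, and 10 were higher and 6 lower in Fam134b KO myotubes. These are 3.95% and 7.89% in myoblasts, against 7.26% and 8.5% of all genes, and 13.2% and 7.89% in myotubes, against 9.74% and 13.7%. Rragd, a Rag GTPase that recruits mTORC1 to the lysosome, and Lamtor4, a subunit of the Ragulator complex that anchors the Rags, were lower in Fam134b KO myoblasts (log2 fold change −2.56, SE 0.62, adjusted p = 0.00606 and log2 fold change −1.39, SE 0.25, adjusted p = 0.000356). In myotubes Igf2r was lower (log2 fold change −2.31, SE 0.54, adjusted p = 0.00393) and Ctns higher in Fam134b KO cells (log2 fold change 2.10, SE 0.35, adjusted p = 0.000196), and Ctns was the only gene of the 76 with an interaction (log2 fold change 2.02, SE 0.50, adjusted p = 0.0247, limma).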

How the data were processed

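mRNA was sequenced from 16 C2C12 samples with a commercial digital mRNA-seq service as single-end reads. Reads were trimmed, aligned with STAR 2.6.0a to mm10 and counted per gene with HTSeq, according to the study's methods and the submitters' processing notes, and the tool used for normalization and the strand setting are not given in the sources used here. The deposited values are log2 values, which the authors made by dividing each count by a factor of the sample and adding 1. This was checked on the values, since all of those above 0 (100%) were whole multiples of 1 step per sample, within a tolerance of 0.001, from which the reads were recovered. Genes that reached 10 normalized counts in 4 or more samples, 10767 in all, went into limma 3.58.1, run in R 4.3.3 (4 group means, no covariates, eBayes with a trend), with a call where the Benjamini-Hochberg adjusted p over all of them was under 0.05. The procedure was tested on simulated data beforehand. Fold changes are differences of mean log2 values of the normalized count plus 1. The added 1 shrinks the change of low genes, while a single sample without reads can enlarge it, as for Ctsh in myotubes. A fold change of the genotypes is Fam134b KO against WT, and the interaction is the fold change on differentiation in Fam134b KO cells minus that in WT. Single values of Tfeb and Tfe3 were also compared by two-sided exact permutation tests, and ratios of few reads carry exact 95% intervals from scipy 1.17.1. These intervals cover counting error in the pooled reads of a group and not the spread between its samples.

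Groups follow the sample titles. The members, the other lists and the tests were chosen with earlier results of these data known. Values per sample are given for the 3 largest positive and 3 largest negative called members of each comparison between groups, for called interactions and for Tfeb and Tfe3, and any other called member may be named. Lamp2 and Gaa were added to the genes with values per sample after their values were seen. For the other lysosomal genes, the 2 called with the largest fold change per comparison are named. Promoter sequences are RefSeq's for GRCm38.p6, the build of mm10, and gene positions and exon overlaps are those of GENCODE M21. Alternatives were pseudocounts of 0.5 and 5, no filter, a minimum of 50, total scaling, quantile normalization, a replicate block, only the samples compared, sample weights, voom on the reads and each sample left out in turn. Leaving out the 2 shallowest Fam134b KO myotube samples was added after the data were seen.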

Additional observations from a re-analysis of the deposited data

Results flagged for a closer look

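In 192 groups of 4 samples, the 48 members in 4 groups, the sample farthest from the others was compared with the other 3 by the gap to its nearest neighbour over the range of the group, with Dixon's 95% critical value. In 12 groups the ratio was larger, where chance gives about 5% of the groups tested. Several of these were genes with hardly any reads. The ratio was 1 for Ctsc in Fam134b KO myoblast replicate 3, for Ctsk in WT myotube replicate 2 and for Ctss in WT myoblast replicate 1 and WT myotube replicate 2, each with 1 or 2 reads where the other 3 samples had none. Cln3 in Fam134b KO myoblast replicate 1 (0.910, 2.62 normalized counts against 1.66 to 1.74) and Idua in WT myoblast replicate 2 (0.934, 7.72 against 1.78 to 2.001) also rest on few reads.

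Among genes with more reads, Ctsh had no read in Fam134b KO myotube replicate 2 and 12.6 to 17.99 normalized counts in the other 3 samples (0.886). Ctsa was above the others in Fam134b KO myoblast replicate 3 (0.849, 130.1 against 75.2 to 81.8), and Man2b1 in Fam134b KO myotube replicate 1 (0.876, 89.1 against 59.9 to 63.0). Tfe3 was below the others in Fam134b KO myoblast replicate 2 (0.863, 231 against 289 to 300.1), Gusb in WT myoblast replicate 4 (0.879, 61.5 against 84.9 to 88.7) and Hexa in WT myotube replicate 2 (0.855, 196 against 257 to 269).

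By the interaction term, the change on differentiation differed between the genotypes for Atp6v1a (1.14, limma adjusted p = 0.00174) and Cd63 (1.29, limma adjusted p = 0.0198), both positive. Atp6v1a was lower in WT and higher in Fam134b KO myotubes than in the myoblasts of the same genotype, and Cd63 was higher in both, by more in Fam134b KO cells. For Atp6v1a the 4 WT and the 4 Fam134b KO myotube samples lay on opposite sides of all 8 myoblast samples.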

How the results depend on the processing

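Of 62 calls of members over the 5 comparisons, 35 were made under every alternative that tested the gene, 27 were lost under at least 1, and none changed its sign. In Fam134b KO against WT myoblasts the 5 calls became 3 with a minimum of 50, where 28 members were tested, and 11 with sample weights. In myotubes the 9 calls became 5 with only the samples compared and 4 without the 2 shallowest Fam134b KO samples, and the cause was not tested. Leaving out each sample in turn gave 14 to 25 members for WT differentiation, 21 to 27 for Fam134b KO differentiation, 2 to 5 for the genotype in myoblasts, 4 to 10 in myotubes and 1 to 3 for the interaction. The lowest of these came without WT myoblast replicate 4 (14), without WT myoblast replicate 1 or Fam134b KO myoblast replicate 4 (2, and 3 without Fam134b KO myoblast replicate 1) and without WT myotube replicate 3 (4, and 5 without WT myotube replicate 4 or Fam134b KO myotube replicate 2). The interaction count was 1, Atp6v1a alone, without WT myoblast replicate 1 or 2, WT myotube replicate 3 or 4, or Fam134b KO myoblast replicate 1 or 4.

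No direction could be read for the uncalled factors in some comparisons. Tfeb in Fam134b KO differentiation (0.28) was −0.16 with sample weights, −0.12 without the 2 shallowest samples and −0.15 to 0.60 with 1 sample left out, lowest without Fam134b KO myotube replicate 2. Tfeb between the genotypes in myotubes (−0.07) was 0.081 with quantile normalization and −0.49 to 0.26 with 1 sample left out, above 0 without WT myotube replicate 1 (0.07) or Fam134b KO myotube replicate 3 (0.26) or 4 (0.10). Tfe3 in Fam134b KO differentiation (−0.12) was −0.25 to 0.0080 with 1 sample left out, above 0 without Fam134b KO myotube replicate 3. Over all genes tested, the same replicate number gave little sign of pairing. The mean correlation of deviations was 0.03 for same-numbered pairs (−0.22 to 0.37) and −0.01 for other pairs, and 10 of 24 same-numbered pairs were over 0.1. The mean deviation of the members, however, was above 0 in replicate 1 of every group (0.04 to 0.43). It was below 0 in replicate 4 of every group (−0.39 to −0.03). Pairing by number was not tested for the members alone. With a replicate block the counts were 26, 24, 5, 9 and 2. The interaction was not run with only the samples compared, since it uses all of them.

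Depth limits the low members: with 2.49 to 5.99 normalized counts for 3 reads, changes of Ctsk and Ctss were not detectable, and folds of Ctsc and Ctsh rest on 1 and 2 reads in Fam134b KO myoblasts. All groups share 1 spread per gene, while Fam134b KO myotubes varied most.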

Other observations

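Genes that act around the members were listed by function in the same way and are part of the 76 other genes counted above. Of 14 tested genes for MiT factors and their regulators, 2 were higher and 1 lower on differentiation of WT cells (14.3% and 7.14%, against 13.8% and 9.16% of all genes) and 5 were higher and none lower on differentiation of Fam134b KO cells (35.7%, against 17.3% of all genes called higher). Between the genotypes, 1 was higher and 3 lower in Fam134b KO than in WT myoblasts (7.14% and 21.4%, against 7.26% and 8.5% of all genes), and 2 were higher and 2 lower in myotubes (14.3% each, against 9.74% and 13.7%). Mitf, the relative of Tfeb and Tfe3 best known from pigment cells and osteoclasts, was singled out after its values were seen. Its log2 fold change was 0.81 and 1.03 on differentiation in WT and Fam134b KO cells and 0.79 and 1.01 in Fam134b KO against WT myoblasts and myotubes, with limma adjusted p-values of 0.0306, 0.00469, 0.0439 and 0.00790. The comparisons between genotypes and those between stages share samples.

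Of 7 genes for inhibitors of cathepsins, 3 were tested. On differentiation of WT cells Cst3, which encodes the secreted cystatin C, was higher (0.62), and Cstb, which encodes the cytosolic cystatin B, and Serpinb6a were lower (−0.75 and −1.05). On differentiation of Fam134b KO cells Cstb was lower (−0.74), and none of the 3 passed between the genotypes (limma), where the log2 differences lay between −0.33 and 0.35.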
